A study of Mus musculus with 4 samples.

Results

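Translation initiation factors (eIFs) were followed in 4 RNA-seq libraries of mouse T cell cultures. They were taken as the rows of the deposited count tables whose symbol begins with Eif and a digit from 1 to 6, without the eIF2 kinases (Eif2ak) and without symbols marked as pseudogenes. This gave 61 of the 31748 gene rows. The KO group (2 libraries) is labelled TEaMthfd2 KO and the WT group (2 libraries) TEaWT. All were labelled CD4+ T cells carrying the TEa receptor, purified from spleens of 8-week-old mice by magnetic positive selection. Both groups were cultured for 3 days with mitomycin-treated antigen-presenting cells from spleens of F1 (BALB/c x C57BL/6) mice, so the KO and WT libraries differ by label in the Mthfd2 genotype alone. Mthfd2 encodes an enzyme that handles one-carbon units on folate in mitochondria. Neither the deleted exons nor any driver of the deletion is named in the labels. They also leave unsaid whether replicate libraries stem from different mice or wells, so the p-values cover only variation among these libraries, possibly technical.

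Initiation begins when eIF2, carrying GTP, brings the initiator methionyl-tRNA to the small ribosomal subunit, helped by eIF1, eIF1A, eIF3 and eIF5. The eIF4F complex (the cap-binding eIF4E, the scaffold eIF4G and the RNA helicase eIF4A) loads this particle on capped mRNA. After start codon recognition eIF2 leaves with GDP and is recharged by the exchange factor eIF2B, while eIF5B joins the subunits. In T cells activation is known to raise the amount and activity of this machinery together with cell growth, and control is known to act through eIF2 phosphorylation and through the eIF4E-binding proteins.

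Total counts were between 14191401 and 15955863 per library. Mthfd2 itself stood at 222 and 252 CPM (counts scaled to a common library size) in KO libraries, against 280 and 280 CPM in WT libraries (log2 fold change -0.24 ± 0.14 SE, adjusted p = 0.324). Counts summed over all exons say little about a deletion of single exons, and the genotypes are therefore taken from the labels. On the first principal component of the tested genes (69.0% of the variance) the KO libraries lay at -43.8 and -40.9, and WT replicates 1 and 2 at 65.1 and 19.6, so the WT libraries lay far apart. Cd8a counts were 3.16 and 3.20 times those of Cd4 in KO libraries and 4.00 and 3.10 times in WT libraries, so Cd8a outweighed Cd4 although the label names CD4+ cells. Transcripts listed as markers of other cells were counted, and several differed between the groups. Of 10 B cell markers edgeR called 4 lower and 0 higher (DESeq2 6 and 0), with summed levels of 1086 and 1091 CPM in KO libraries against 2393 and 1609 CPM in WT libraries. Of 10 MHC class II genes 6 were called lower, with sums of 1278 and 1102 CPM in KO libraries against 4023 and 2381 CPM in WT libraries, while H2-Ea had at most 2 counts. The 10 myeloid markers summed to 81.1 and 65.7 CPM in KO libraries against 149 and 94.3 CPM in WT libraries, with 1 called lower. Most of this sum was Cst3, at 70.0 and 55.5 CPM in KO libraries and 98.8 and 66.9 CPM in WT libraries. Itgam had no more than 4 counts. The 6 dendritic cell markers summed to 15.2 and 8.82 CPM in KO libraries against 39.6 and 18.1 CPM in WT libraries. Of these, 0 were called by edgeR (2 lower at an unadjusted p under 0.05) and 1 was called lower by DESeq2. Of the 4 tested, 2 had negative values and 2 positive values (Xcr1 0.78 and Itgax 0.45). The 4 NK cell markers summed to 47.4 and 59.7 CPM in KO libraries against 68.3 and 60.6 CPM in WT libraries. Of these, 0 were called by edgeR (1 lower at an unadjusted p under 0.05) and 0 by DESeq2. Of the 3 tested, 2 had negative values and 1 a positive value. Most of this sum was Eomes, at 46.0 and 56.8 CPM in KO libraries and 64.2 and 57.0 CPM in WT libraries. Ncr1, Klrb1c and Klra8 had at most 45 counts in any library. The 5 plasma cell markers (2 called lower) summed to 231 and 203 CPM in KO libraries against 313 and 277 CPM in WT libraries. Their values were negative for 3 and positive for 2. Most of this sum was Xbp1, at 171 and 157 CPM in KO libraries and 177 and 206 CPM in WT libraries. The 5 matched erythroid markers (2 called lower) summed to 6.86 and 3.08 CPM in KO libraries against 127 and 32.3 CPM in WT libraries. Of 9 matched T cell markers, 3 (Cd3d, Cd3e and Cd3g) were called higher, with sums of 2848 and 2954 CPM in KO libraries against 2032 and 2127 CPM in WT libraries. The part of these marker differences in the values of the initiation factors was not tested. In bulk libraries, fewer cells of a type and less RNA per cell cannot be told apart.

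Of the 61 members, 52 passed the filter on low counts. Among the 9 that did not, 8 had 0 counts in all 4 libraries, and Eif1ad4 had a single count, in WT replicate 1. These are 8 copies of the Eif1ad family, and Eif4e1b, an eIF4E variant known from oocytes. The 61 members together held 1.36% and 1.53% of all counts in KO libraries, against 1.78% and 1.74% in WT libraries. Their summed level was 13625 and 15863 CPM in KO libraries, against 17392 and 17295 CPM in WT libraries, so both KO libraries lay below both WT libraries and KO replicate 1 was the lowest.

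A single member passed the threshold (edgeR quasi-likelihood test, Benjamini-Hochberg adjusted p under 0.05 over all 12752 genes tested): Eif2b3 fell, and 0 members rose. Calls in either direction made up 3.95% of all genes tested and calls of a lower level 1.56%, against 1.92% of the members, a share near that of all genes. A negative log2 fold change was found for 38 of 52 members, against 50.2% of all genes tested. Their median was -0.27, against -0.0026 over all genes, and they ranged from -1.11 to 0.53. In 29 members both KO libraries lay below both WT libraries, or 55.8%, against 30.1% of all genes, and in 5 both KO libraries lay above both WT libraries, or 9.62%, against 29.8% of all genes. In the other 18 the groups overlapped. The median rested in part on 1 library: without KO replicate 1 it was -0.12, and without KO replicate 2 it was -0.38. Without WT replicate 1 the median was -0.27, and without WT replicate 2 it was -0.24. Between the 2 KO libraries, 37 of 52 members were lower in replicate 1, against 51.3% of all genes. DESeq2 called 5 members lower, or 9.80% of those it tested, against 5.94% of all genes, and 0 higher, against 6.42% of all genes. These were Eif1a, Eif2b3, Eif4e, Eif5 and Eif6.

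**Figure D1:**
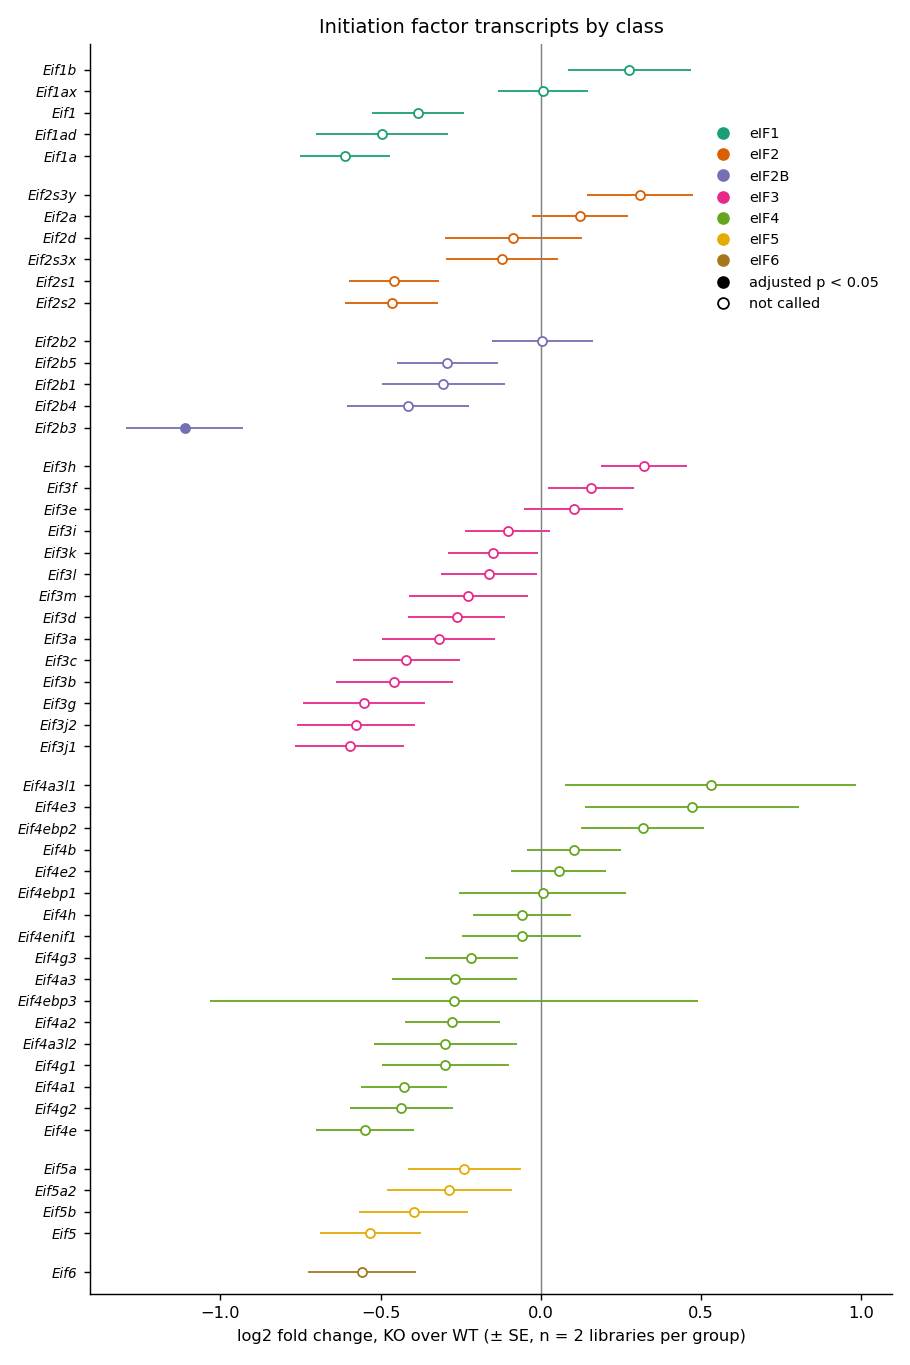
Log2 fold change (KO over WT) with its standard error for the 52 members that passed the filter on low counts, grouped by class; n = 2 libraries per group. The filled point is Eif2b3 at -1.11, the one member called by edgeR at an adjusted p under 0.05; the other points lie between -0.61 and 0.53.

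By class, the summed level in both KO libraries lay below that of both WT libraries in all 7 classes. As a percentage of the WT mean, eIF6, a class of 1 gene, stood at 59.1% and 76.9% in KO libraries, against 101% and 98.8% in WT libraries. For eIF2B the sums were 71.3% and 83.2% in KO libraries, against 97.0% and 103% in WT libraries. The eIF5 class stood at 71.7% and 90.1% in KO libraries, against 101% and 99.2% in WT libraries. The spread between KO libraries in eIF5 was thus wider than the gap from KO replicate 2 to the WT libraries. The same held for eIF4, and in eIF3 for the gap to the nearer WT library (values below). For eIF1 the KO values were 78.5% and 82.2% and the WT values 101% and 98.8%. In the mean of the KO libraries the other 3 classes lay closer to WT (eIF3 86.1%, eIF2 87.4% and eIF4 87.6%). Single libraries did not separate these classes from the rest, as eIF5 in KO replicate 2 lay above eIF2 in both KO libraries. The eIF3 sums were 80.9% and 91.3% in KO libraries and 103% and 97.3% in WT libraries, those of eIF2 were 87.7% and 87.2% in KO libraries and 97.6% and 102% in WT libraries, and those of eIF4 were 79.9% and 95.2% in KO libraries and 98.4% and 102% in WT libraries. A class sum follows its most abundant members and has no test here.

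The class medians of the log2 fold change, in which each gene counts alike, were -0.56 for eIF6, -0.38 for eIF1, -0.34 for eIF5, -0.30 for eIF2B, -0.24 for eIF3, -0.22 for eIF4 and -0.10 for eIF2. Leaving out single libraries moved the medians of eIF1, eIF2, eIF3, eIF4 and eIF6 by more than the replicate spread. That of eIF4 was -0.031 without KO replicate 1, and that of eIF2 was 0.046 without WT replicate 2 and -0.25 without WT replicate 1. The order of the classes is therefore not fixed by these 4 libraries. Outside eIF2B (1 lower), the test called 0 members in every class, and DESeq2 called 1 in each of eIF1, eIF2B, eIF4, eIF5 and eIF6 and 0 in eIF2 and eIF3. At an unadjusted p under 0.05 the members lower in KO libraries were 3 of 5 in eIF1, 2 of 6 in eIF2, 1 of 5 in eIF2B, 5 of 14 in eIF3, 3 of 17 in eIF4, 1 of 4 in eIF5 and 1 of 1 in eIF6. In all this is 16 of 52, or 30.8%, against 12.7% of all genes.

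**Figure D2:**
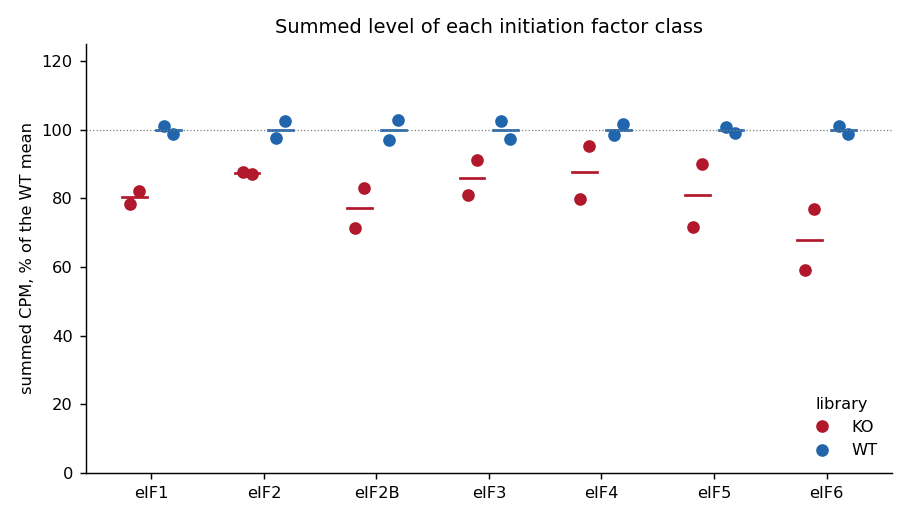
Summed CPM of each class in every library, as a percentage of the WT mean of that class; points are libraries and short lines are means of 2. KO libraries lie between 59.1% and 95.2% and WT libraries between 97.0% and 103%.

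The eIF2B complex held the member that was called. Eif2b3 encodes eIF2B gamma, which with eIF2B epsilon forms the catalytic part of the exchange factor (chromosome 4, 117019402 to 117087306, plus strand, GRCm38). It had 449 and 554 counts in KO libraries and 1349 and 1064 counts in WT libraries, or 31.7 and 39.7 CPM in KO libraries against 82.4 and 71.9 CPM in WT libraries. Both KO libraries lay below both WT libraries. The mean was 35.7 ± 5.63 CPM in KO libraries and 77.2 ± 7.41 CPM in WT libraries (SD, n = 2 each), 46.3% of the WT level in the fit. The log2 fold change was -1.11 ± 0.18 (SE; edgeR adjusted p = 0.0400). The transcript shares no stretch of 50 bases with another annotated gene and overlaps no antisense exon. The call was lost without KO replicate 1 (-0.95, adjusted p = 0.309) and without KO replicate 2 (-1.28, adjusted p = 0.175), fits in which the edgeR test called 0 of all genes.

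The other 4 subunits of eIF2B did not pass. Eif2b5, the catalytic epsilon subunit, stood at 122 and 144 CPM in KO libraries against 171 and 155 CPM in WT libraries (-0.29 ± 0.16, edgeR adjusted p = 0.292). The regulatory subunits alpha, beta and delta are encoded by Eif2b1 (-0.30 ± 0.19), Eif2b2 (0.00 ± 0.16) and Eif2b4 (-0.41 ± 0.19), with edgeR adjusted p of 0.359, 0.990 and 0.228. Eif2b2 had the same level in both groups, 61.9 and 66.2 CPM in KO libraries and 60.2 and 67.5 CPM in WT libraries. Eif2b3 counts were therefore 0.513 and 0.600 times those of Eif2b2 in KO libraries, against 1.37 and 1.07 times in WT libraries. This within-library ratio does not depend on the scaling of the libraries, and it was not tested beyond these values. Because it pairs the called member with a level subunit, its separation restates the fold change of Eif2b3 and adds no support.

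The substrate of eIF2B, the eIF2 trimer, had subunits with unlike values. Eif2s1, the alpha subunit that the stress kinases phosphorylate, stood at 203 and 224 CPM in KO libraries against 284 and 304 CPM in WT libraries (-0.46 ± 0.14, edgeR adjusted p = 0.108). Eif2s2, the beta subunit, stood at 116 and 113 CPM in KO libraries against 166 and 151 CPM in WT libraries (-0.47 ± 0.15, edgeR adjusted p = 0.113). For both genes the groups did not overlap, but neither passed. Another annotated gene, Gm9892, shares 27.8% of the 50-base stretches of Eif2s2.

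The gamma subunit comes from the X-linked Eif2s3x and its Y-linked copy Eif2s3y. Eif2s3x stood at 49.9 and 62.7 CPM in KO libraries and 59.4 and 63.1 CPM in WT libraries (-0.12 ± 0.17). Eif2s3y stood at 110 and 94.5 CPM in KO libraries and 87.5 and 77.5 CPM in WT libraries (0.31 ± 0.17, edgeR adjusted p = 0.290). Eif2s3y was counted in all 4 libraries, and Xist had at most 6 counts in each. Eif2a and Eif2d, factors that can deliver initiator tRNA apart from eIF2, stood at 0.12 ± 0.15 and -0.09 ± 0.21, and both overlapped between the groups.

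**Figure D3:**
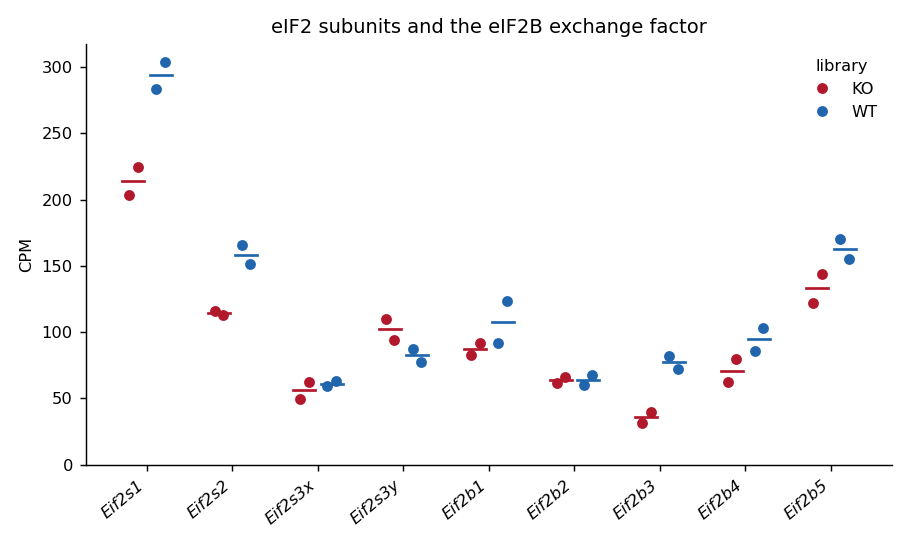
CPM of the eIF2 and eIF2B subunit genes in each library (points) with group means (short lines), n = 2 libraries per group. Eif2b3 lies at 31.7 and 39.7 CPM in KO libraries, below both WT libraries at 82.4 and 71.9 CPM, while Eif2b2 overlaps.

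In the eIF1 class, which guards the choice of start codon, Eif1a was the member nearest to the threshold. Eif1a, an autosomal copy of the eIF1A gene, stood at 172 and 159 CPM in KO libraries against 261 and 246 CPM in WT libraries (-0.61 ± 0.14, edgeR adjusted p = 0.0593). DESeq2 called it (adjusted p = 0.00720), as did edgeR without the filter on low counts (adjusted p = 0.0333). Its X-linked paralog Eif1ax was level, at 193 and 203 CPM in KO libraries and 189 and 206 CPM in WT libraries (0.01 ± 0.14, 95% interval -0.33 to 0.34). Counts of Eif1ax were 1.12 and 1.27 times those of Eif1a in KO libraries, against 0.722 and 0.838 times in WT libraries. The balance of the copies thus differed between the groups without overlap. It restates the lower value of Eif1a beside a level Eif1ax, and the difference was not tested.

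Eif1, the start codon scanning factor, stood at 147 and 141 CPM in KO libraries against 198 and 178 CPM in WT libraries (-0.38 ± 0.14, edgeR adjusted p = 0.162), and other annotated genes share 31.6% of its stretches. Its paralog Eif1b stood at 52.6 and 56.1 CPM in KO libraries against 51.6 and 38.1 CPM in WT libraries (0.28 ± 0.19). Eif1ad, a protein with an eIF1A-like domain, had a log2 fold change of -0.50 ± 0.21 (edgeR adjusted p = 0.192), with 428 exon bases that overlap the antisense gene Banf1.

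The eIF3 complex, the largest factor and the scaffold of the particle, had 14 tested genes that spanned from -0.60 to 0.32, with 0 called by edgeR and 0 by DESeq2. Values ran in order from Eif3j1 and Eif3j2 over Eif3g, Eif3b, Eif3c, Eif3a, Eif3d, Eif3m, Eif3l, Eif3k and Eif3i to Eif3e, Eif3f and Eif3h. Neighbours in this order differed by less than the standard error of either, except Eif3i and Eif3e, and Eif3f and Eif3h. Both KO libraries lay below both WT libraries for 9 of the 14, against 30.1% of all genes tested. They lay above both WT libraries for 2, Eif3f and Eif3h, against 29.8% of all genes tested.

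At the low end were the genes of the loosely bound j subunit. Eif3j1 stood at 47.4 and 55.8 CPM in KO libraries against 83.3 and 72.9 CPM in WT libraries (-0.60 ± 0.17, edgeR adjusted p = 0.0937). Eif3j2 stood at 67.9 and 82.7 CPM in KO libraries against 124 and 101 CPM in WT libraries (-0.58 ± 0.18, edgeR adjusted p = 0.119). These 2 genes share 54.8% and 91.8% of their 50-base stretches with other genes, each other among them, so they are not separate measurements. Eif3g, which binds mRNA and eIF4B, stood at 131 and 180 CPM in KO libraries against 239 and 216 CPM in WT libraries (-0.55 ± 0.19, edgeR adjusted p = 0.138). Eif3b, the scaffold of the g and i subunits, stood at 501 and 686 CPM in KO libraries against 806 and 823 CPM in WT libraries (-0.46 ± 0.18). For Eif3b the 2 KO libraries lay farther apart than KO replicate 2 lay from WT.

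The core subunits a and c were at the top of the complex in CPM. Eif3c stood at 642 and 752 CPM in KO libraries against 1019 and 846 CPM in WT libraries (-0.42 ± 0.17, edgeR adjusted p = 0.178), and Eif3a had a log2 fold change of -0.32 ± 0.18. At the other end were Eif3f and Eif3h, the subunits with a deubiquitinase-type (MPN) fold, and Eif3e. Eif3h stood at 404 and 392 CPM in KO libraries against 309 and 328 CPM in WT libraries (0.32 ± 0.13, edgeR adjusted p = 0.195), the 1 member higher at an unadjusted p under 0.05, against 12.8% of all genes. Eif3f stood at 453 and 476 CPM in KO libraries against 421 and 412 CPM in WT libraries (0.16 ± 0.13, edgeR adjusted p = 0.499). Eif3e was at 0.10 ± 0.15, with overlapping groups.

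Ratios of single subunits were taken after their fold changes were seen, from both ends of the order, so that the groups separate by this choice. Counts of Eif3h were 0.807 and 0.571 times those of Eif3b in KO libraries, against 0.383 and 0.398 times in WT libraries. Those of Eif3f were 0.905 and 0.694 times those of Eif3b in KO libraries, against 0.523 and 0.50 times in WT libraries. In both ratios the KO libraries differed from each other more than the WT libraries did. Eif3h and Eif3e share 26.2% and 22% of their stretches with other annotated genes, while Eif3f and Eif3b share none. Per kilobase of transcript, Eif3k, Eif3i and Eif3h had the highest mean levels of the complex in KO libraries (308, 317 and 307 CPM per kb) and Eif3k and Eif3i in WT libraries (341 and 340 CPM per kb). The lowest was Eif3j1, at 9.54 CPM per kb in KO libraries and 14.4 CPM per kb in WT libraries.

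**Figure D4:**
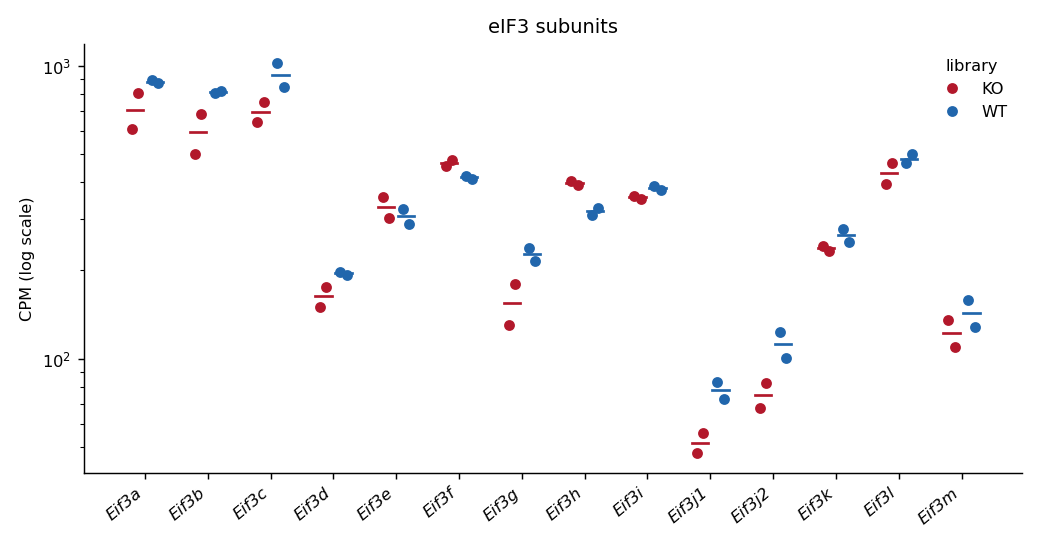
CPM (log scale) of the 14 eIF3 genes in each library (points) with group means (short lines), n = 2 libraries per group. For 9 genes both KO points lie below both WT points, and for Eif3f and Eif3h both lie above.

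In the eIF4 class, edgeR called 0 of 17 tested members and DESeq2 called 1, Eif4e, the cap-binding protein. Eif4e stood at 134 and 157 CPM in KO libraries against 221 and 204 CPM in WT libraries, 68.3% of the WT level in the fit (-0.55 ± 0.15, edgeR adjusted p = 0.0881). The DESeq2 adjusted p was 0.0341. Its inhibitor Eif4ebp2, which blocks eIF4G binding until mTORC1 phosphorylates it, stood at 392 and 472 CPM in KO libraries and 295 and 398 CPM in WT libraries (0.32 ± 0.19, edgeR adjusted p = 0.339). KO replicate 1 lay below WT replicate 2 for Eif4ebp2, so the groups overlapped. Counts of Eif4ebp2 were 2.92 and 3.01 times those of Eif4e in KO libraries, against 1.33 and 1.95 times in WT libraries. This ratio of inhibitor to target transcript did not overlap between the groups. Its parts had fold changes of opposite sign, so the gap restates their values and adds no support. The ratio was not tested.

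Eif4ebp1 stood at 78.8 and 74.3 CPM in KO libraries and 96.3 and 56.0 CPM in WT libraries. The fold change was 0.01 ± 0.26 with a 95% interval from -0.61 to 0.63. Changes of up to about that size in either direction thus remained compatible with these libraries. Counts of Eif4ebp1 were 0.587 and 0.474 times those of Eif4e in KO libraries, against 0.435 and 0.274 times in WT libraries. Eif4ebp3 was nearly silent, with 5 and 10 counts in KO libraries and 8 and 12 counts in WT libraries (-0.27 ± 0.76, edgeR adjusted p = 0.856). Per kilobase, Eif4ebp2 was above Eif4ebp1 in both groups, at 74.7 against 38.3 CPM per kb in KO libraries and 59.9 against 38.1 CPM per kb in WT libraries.

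Among the other cap-binding proteins, Eif4e2, which represses its mRNAs, was level at 118 and 130 CPM in KO libraries and 118 and 121 CPM in WT libraries (0.06 ± 0.15). Eif4e3, a weak cap binder, stood at 21.0 and 11.5 CPM in KO libraries and 10.6 and 12.9 CPM in WT libraries, so a higher KO mean came from replicate 1 alone. Eif4enif1, the eIF4E transporter, stood at 236 and 318 CPM in KO libraries and 269 and 310 CPM in WT libraries (-0.06 ± 0.19), with overlap.

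The scaffolds of eIF4G had negative values in all 3 genes and 0 calls by edgeR (1 lower at an unadjusted p under 0.05) or DESeq2. Eif4g1 stood at 814 and 1094 CPM in KO libraries and 1054 and 1294 CPM in WT libraries (-0.30 ± 0.20), with overlap. Eif4g2, a homolog that lacks the eIF4E-binding site, stood at 1047 and 1263 CPM in KO libraries against 1572 and 1551 CPM in WT libraries (-0.44 ± 0.16, edgeR adjusted p = 0.155). Eif4g3 stood at 190 and 220 CPM in KO libraries against 236 and 240 CPM in WT libraries (-0.22 ± 0.15). Eif4g1 and Eif4g2 differed by less than the standard error of either, and without WT replicate 1 they changed places (Eif4g1 -0.44, Eif4g2 -0.42).

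For the helicase, Eif4a1 stood at 198 and 197 CPM in KO libraries against 269 and 261 CPM in WT libraries (-0.43 ± 0.13, edgeR adjusted p = 0.114), with 65.3% of its stretches shared with other annotated genes. Eif4a2 stood at 433 and 461 CPM in KO libraries against 583 and 499 CPM in WT libraries (-0.28 ± 0.15). In the ratio of Eif4a2 to Eif4a1 the KO libraries were at 2.18 and 2.34 and the WT libraries at 2.16 and 1.91, so KO replicate 1 and WT replicate 1 were nearly alike. Eif4a3, the exon junction helicase, was at -0.27 ± 0.19. Its relatives Eif4a3l2 (-0.30 ± 0.22) and Eif4a3l1 (3.75 and 3.37 CPM in KO libraries and 1.89 and 3.04 CPM in WT libraries, 0.53 ± 0.45) share long stretches with each other and with Eif4a3. The helicase cofactors were level, Eif4b at 812 and 907 CPM in KO libraries and 833 and 766 CPM in WT libraries (0.10 ± 0.15) and Eif4h at -0.06 ± 0.15.

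**Figure D5:**
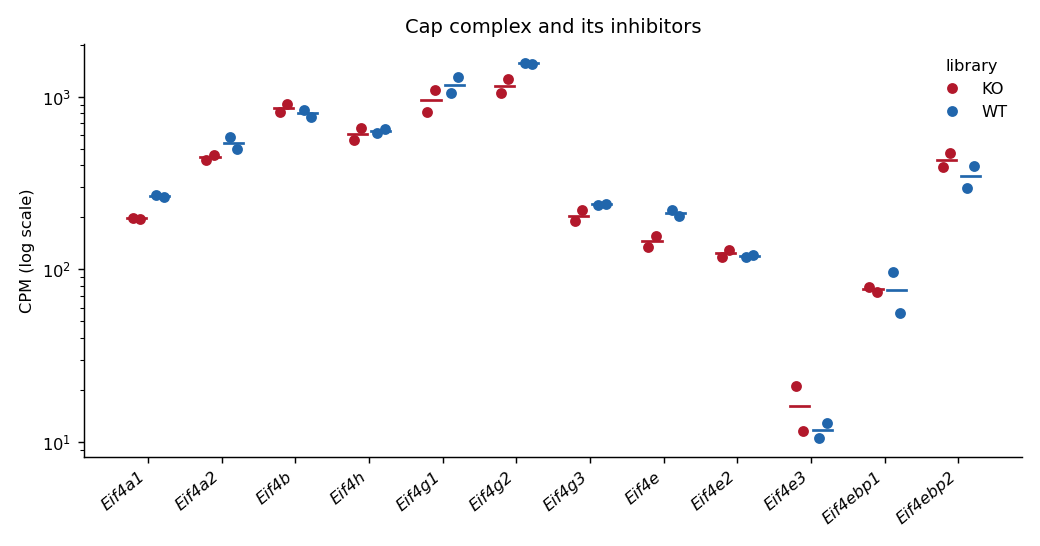
CPM (log scale) of 12 eIF4 class genes in each library (points) with group means (short lines), n = 2 libraries per group. Eif4e lies at 134 and 157 CPM in KO libraries, below the WT libraries at 221 and 204 CPM, while the points of Eif4ebp1, Eif4ebp2, Eif4b and Eif4h overlap.

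The late factors all had negative values. Eif5, the GTPase activator of eIF2, stood at 346 and 401 CPM in KO libraries against 583 and 498 CPM in WT libraries (-0.53 ± 0.16, edgeR adjusted p = 0.102; DESeq2 adjusted p = 0.0410). Eif5b, the subunit-joining GTPase, was at -0.40 ± 0.17, and it overlaps Rev1 on the other strand over 1643 exon bases. Eif5a, the hypusine-carrying factor that helps ribosomes through difficult peptide bonds, was the most abundant member. It stood at 1522 and 1946 CPM in KO libraries against 2010 and 2083 CPM in WT libraries (-0.24 ± 0.18, edgeR adjusted p = 0.433), and per kilobase at 1207 CPM in KO libraries and 1424 CPM in WT libraries it was the highest of all members. Its paralog Eif5a2 stood at 18.6 and 21.1 CPM in KO libraries and 24.2 and 24.3 CPM in WT libraries. The ratio of Eif5a2 to Eif5a was 0.0122 and 0.0109 in KO libraries and 0.0120 and 0.0116 in WT libraries, with overlap.

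Eif6, which keeps the large ribosomal subunit from joining and acts in its biogenesis, stood at 164 and 213 CPM in KO libraries against 281 and 274 CPM in WT libraries. This is 68.0% of the WT level (-0.56 ± 0.17, edgeR adjusted p = 0.106), and DESeq2 called it (adjusted p = 0.0484).

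The promoters of the members were searched for the E-box CACGTG (palindromic, so both strands at once), the site of MYC with MAX and of related factors, which MYC is known to use in genes of translation. Sequences were RefSeq promoters of GRCm38.p6, from 250 bases before to 50 bases after the annotated start, and 40 of the 61 members matched. Among the tested members without a match were Eif2b3, Eif1a, Eif6, Eif3h and Eif4g2. The motif shares and medians therefore leave out the 1 member called by edgeR. An E-box was present for 10 of these 40 (25%), against 11.8% of the tested genes with a promoter and 8.09% of all 27025 genes with one. For each motif a gene was counted if any of its promoters held it. The shares thus depend on the number of annotated promoters, which was 6 for Eif5a. Members with the motif had a median log2 fold change of -0.26 and members without it -0.27, which are nearly the same. Over all tested genes these medians were -0.11 with it and 0.01 without. Of these promoters 3 are printed, from 250 bases to 1 base before the start, chosen to show the E-box (capitals) in a gene with a negative value (Eif4e) and in genes with positive values (Eif3f and Eif1b). They lie at chr3:138527018-138527267, chr7:108934165-108934414 and chr9:120492356-120492605, all on the plus strand.
Eif4e: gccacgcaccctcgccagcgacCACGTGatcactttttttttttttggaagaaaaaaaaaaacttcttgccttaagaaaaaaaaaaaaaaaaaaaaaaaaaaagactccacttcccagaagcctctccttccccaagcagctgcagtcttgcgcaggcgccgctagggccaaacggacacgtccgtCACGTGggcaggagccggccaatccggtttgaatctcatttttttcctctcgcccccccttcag
Eif3f: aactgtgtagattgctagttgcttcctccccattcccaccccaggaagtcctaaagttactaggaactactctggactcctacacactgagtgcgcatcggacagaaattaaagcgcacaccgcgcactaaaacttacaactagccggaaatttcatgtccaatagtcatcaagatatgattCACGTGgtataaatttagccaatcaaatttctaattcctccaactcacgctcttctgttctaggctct
Eif1b: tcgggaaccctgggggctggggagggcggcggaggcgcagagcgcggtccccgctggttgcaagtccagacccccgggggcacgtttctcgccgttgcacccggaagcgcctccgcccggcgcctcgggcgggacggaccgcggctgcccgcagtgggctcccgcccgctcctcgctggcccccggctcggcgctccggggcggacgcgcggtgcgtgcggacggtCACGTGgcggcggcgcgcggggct
For Eif4e, which has 2 RefSeq promoters, the E-boxes lie only in the printed one and begin 228 and 64 bases before its start. The E-box begins 68 bases before the start in Eif3f and 24 bases before it in Eif1b. The printed stretches of Eif4e and Eif1b lie downstream of the GENCODE gene starts, 138526179 and 120492232. The core ACGTG of the hypoxia response, which lies within the E-box on either strand, was present for 18 of 40 members (45%), against 29.8% of the tested genes with a promoter. The motif TGATGNAA of ATF4 and its partners was found in 1 promoter, that of Eif2s3x (2.5%, against 2.79%). A start with a C and at least 5 further C or T, within 5 bases of the annotated start, as in mRNAs with a terminal oligopyrimidine tract, was found for 7 of 40 members (17.5%, against 12.9% of the tested genes with a promoter). Their median log2 fold change was -0.12, against -0.28 for the other members. They were Eif2b2, Eif2b5, Eif2s3x, Eif2s3y, Eif3f, Eif3l and Eif4g1. Annotated starts can be several bases off, and a match is a description of letters alone.

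Genes that act on the initiation factors were counted in lists. Of 4 eIF2 kinases 0 were called by edgeR or DESeq2. Eif2ak3 (PERK, the kinase of endoplasmic reticulum stress) stood at 44.0 and 30.8 CPM in KO libraries against 23.0 and 24.2 CPM in WT libraries (0.66 ± 0.22, edgeR adjusted p = 0.128), and it was the only kinase with an unadjusted p under 0.05. Of 5 phosphatase subunits, edgeR called 0 and DESeq2 called 1, higher. At an unadjusted p under 0.05 edgeR put 1 of these lower and 1 higher. Ppp1ca, a catalytic subunit of protein phosphatase 1, was the higher one, with 520.3 and 555 CPM in KO libraries against 363 and 410.4 CPM in WT libraries (0.48 ± 0.14, edgeR adjusted p = 0.104). Ppp1r15a (GADD34), which directs dephosphorylation of eIF2 alpha, stood at 21.1 and 22.7 CPM in KO libraries against 41.4 and 28.6 CPM in WT libraries (-0.67 ± 0.23, edgeR adjusted p = 0.133).

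Among 23 regulators of the cap complex and mTORC1, edgeR called 2 higher and 0 lower, against 2.39% of all genes called higher, and DESeq2 called 3 higher and 1 lower. Before adjustment, edgeR gave a p under 0.05 to 4 with positive values and to 3 with negative values. Pdcd4, a protein that binds eIF4A and blocks its helicase activity, had 76.5 and 90.0 CPM in KO libraries against 37.0 and 37.4 CPM in WT libraries (1.16 ± 0.16, edgeR adjusted p = 0.0326). Ddit4, an inhibitor of mTORC1, had 282 and 186 CPM in KO libraries against 17.3 and 28.9 CPM in WT libraries (3.34 ± 0.32, edgeR adjusted p = 0.0199). The median of this list was -0.12, with 14 negative and 9 positive values. Paip2, an inhibitor of poly(A)-binding protein, was just short of the threshold at 0.79 ± 0.17 (edgeR adjusted p = 0.0513).

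The remaining lists were small, so that 1 called gene is already a larger share than that of all genes. The list of 13 initiation factors with other symbols also holds genes beyond initiation factors (Pdcd4, Larp4, Sbds and Efl1). In it edgeR called Pdcd4 alone, higher, while DESeq2 called 1 higher and 1 lower. Before adjustment, edgeR gave a p under 0.05 to 4 with negative values (Ddx3x, Bzw2, Larp4 and Efl1) and to 1 with a positive value. A negative value was found for 12 (median -0.32), against 50.2% of all genes. Of 11 tested genes listed with the elongation factors, edgeR called 1 lower and 0 higher, and DESeq2 called 3 lower and 0 higher. Before adjustment edgeR had 4 lower and 1 higher with a p under 0.05. The 4 lower ones were Eef1e1, Eef2k, Dph1 and Dph2, none of them an elongation factor itself. The factors Eef1a1, Eef1b2, Eef1d and Eef1g stood at 0.18, 0.24, -0.17 and -0.04. The edgeR call was Eef1e1, a scaffold protein of the aminoacyl-tRNA synthetase complex, with 55.5 and 59.6 CPM in KO libraries against 147 and 129 CPM in WT libraries (-1.26 ± 0.16, edgeR adjusted p = 0.0287). The list median was -0.07, and Eef2, the translocase, stood at 7248 and 7541 CPM in KO libraries against 5181 and 5847 CPM in WT libraries (0.42 ± 0.18, edgeR adjusted p = 0.192). The edgeR test called 0 of 6 termination and recycling factors (2 lower at an unadjusted p under 0.05, DESeq2 0), 0 of 2 hypusine enzymes (1 lower at an unadjusted p under 0.05, DESeq2 1 lower) and 0 of 9 mitochondrial factors (1 lower at an unadjusted p under 0.05, DESeq2 0). Dhps, which makes the first step of hypusine on eIF5A, stood at 35.4 and 40.9 CPM in KO libraries against 63.2 and 66.3 CPM in WT libraries (-0.76 ± 0.16, edgeR adjusted p = 0.0510).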

How the data were processed

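The authors deposited 1 table of read counts per library, whole numbers for 31748 gene symbols, not normalized. Per the submitters' processing notes, the tools were Subread 2.0.1, featureCounts, DESeq2 1.30.1 and R 4.0.4 with the build mm10, in no stated role or order. Annotation, strand setting and handling of multi-mapping reads were not stated in these notes. Members and gene lists were chosen with earlier results of these data known. The tests used edgeR 4.0.16 under R 4.3.3. Its filterByExpr (minimum count 10, minimum total 15) left 12752 genes, scaled by TMM. All 4 libraries entered 1 quasi-likelihood fit without covariates, adjusted by Benjamini-Hochberg over all genes. CPM use the TMM-scaled total of the kept genes. The 95% intervals use the fit's 6.70 degrees of freedom. The fit was tested on simulated counts. Libraries of a group differed beyond counting error (chi-square per degree of freedom 16.1 in KO and 40.3 in WT). Positions, transcript lengths and shared 50-base stretches came from GENCODE M21 (GRCm38), which matched 53 of the 61 members. Values were given in every library for members past the threshold, for the largest fold change, the highest CPM and the adjusted p nearest to the threshold in each class and each subgroup of eIF4, and for paralog pairs; some others were named after their values were seen. Of the listed genes, Trac and Hbb-bs had no row and Znf598 was read as Zfp598. Alternatives were other scalings, no filter, DESeq2 1.42.0, limma-voom 3.58.1, each library left out and a replicate block.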

Additional observations from a re-analysis of the deposited data

How the results depend on the processing

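In the edgeR fit 1 member was called lower and 0 higher. With other size factors, upper quartile factors, library size only and limma-voom the member called lower was again Eif2b3. The count of lower members moved to 2 with no filter and to 2 with the replicate block (Eif1a added in both), and to 5 with DESeq2; it was between 0 and 6 when 1 library was left out, 0 without either KO library, 1 without WT replicate 1 and 6 without WT replicate 2. Higher members stayed at 0 in all of these fits. In the replicate block fit Eif2b3 was at -1.12; same-numbered libraries deviated together with a correlation of 0.04 over all genes and 0.159 over the 52 members, and the labels do not pair them. With library size only the median of eIF1 was -0.43 and that of eIF4 -0.27, where the median of all genes was -0.05. Leaving out 1 library put the median of eIF1 between -0.43 and -0.25, of eIF2 between -0.25 and 0.046, of eIF2B between -0.50 and -0.23, of eIF3 between -0.33 and -0.16, of eIF4 between -0.32 and -0.031, of eIF5 between -0.50 and -0.21 and of eIF6 between -0.76 and -0.37. A fit without 1 library leaves a lone library in a group, assumed to vary like the other group. With 2 libraries per group, the median standard error of a member's log2 fold change was 0.168, which limits the changes these data can resolve. The cause of these moves was not tested.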
